A study of Mus musculus with 4 samples.

Results

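Dermal cells from the abdominal skin of 15 dpc mice were compared with those from the abdominal skin of virgin mice, both after injections of the vehicle dimethyl sulphoxide (DMSO). Dpc stands for days post coitum. The study asked which genes of the dermis differ when the abdominal skin expands in pregnancy, and it also held dermis of 15 dpc abdominal skin injected with PP2, a Src inhibitor, and dermis of 15 dpc dorsal skin injected with DMSO. RNA of each condition was hybridised to 1 array. All mice were C57BL/6 females of 10 weeks by the labels, and all were injected into the dermis 2 times daily over 4 days, which in pregnant mice began at 12 dpc. Titles give the pregnant samples as 15 dpc and the descriptions as 16 dpc, and 15 dpc is used here. The dermal cells came from scraped skin, freed of subcutaneous fat and digested with collagenases and hyaluronidase. How many mice gave the RNA of an array is not given in the sources used.

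The arrays carry probe sets, each a group of short probes for 1 stretch of a transcript. For each, the authors deposited a signal (a linear intensity in arbitrary units) and a detection call: present, marginal or absent. A probe set entered the comparison when it was annotated with a single gene symbol and called present on at least 1 of the 2 arrays. These were 23275 of 34945 probe sets, for 12961 of 18193 genes, against 24581 probe sets and 13585 genes called present on at least 1 of all 4 arrays. Each gene was represented by its brightest probe set over the 2 arrays. A gene was called higher or lower at 15 dpc when that probe set differed over 2-fold and the brighter array called it present. Where the dimmer array did not call it present, the fold is a bound, given as "at least": the dim side was then set to the probe set's own signal or to the dimmest present signal of that array, taking the larger. With 1 array a side, no difference has an error, an SD or a test, and the agreement of different probe sets of a gene on the same arrays is no replicate of the mice. Signals of different probe sets have no common scale, so a signal is set only against the same probe set on another array, and sums or medians of signals over a list are set only against those of the same probe sets on another array.

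The dermis holds fibroblasts and their collagen, vessels, nerves and immune cells. It also surrounds the hair follicles, whose lower part pushes down into it. Follicles pass through growth, regression and rest, and the proteins of the hair shaft and of the inner root sheath that moulds it are made only during growth, in the cells above the dermal papilla. The papilla, a cluster of specialised fibroblasts at the base of the follicle, sends growth factors and Wnt signals to those cells. In pregnancy the abdominal skin widens with the growing foetuses, and the skin meets changed levels of oestrogen, progesterone and prolactin.

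Depth of detection was alike on both sides: 59.4% of all 45101 probe sets were called present on the 15 dpc array and 58.4% on the virgin array. The authors had scaled both arrays to the same trimmed mean. Defining genes of dermal fibroblasts were bright on both, with 30307 at 15 dpc and 29055 in virgin dermis for *Col3a1*, a chain of type III collagen. Keratinocyte RNA was present on both as well, since *Krt5*, a keratin of basal keratinocytes, had 16946 at 15 dpc and 13760 in virgin dermis. The ratio of 3′ to 5′ control signals of *Gapdh*, a sign of RNA integrity and labelling, was 1.41 on the 15 dpc array, 5.84 on the PP2 array, 2.97 on the dorsal array and 2.51 on the virgin array. That of β-actin was 2.03 on the 15 dpc array, 2.70 on the PP2 array, 4.14 on the dorsal array and 2.64 on the virgin array. The median of the hybridisation controls was 7259 on the 15 dpc array, 3312 on the PP2 array, 11567 on the dorsal array and 10473 on the virgin array, so the PP2 array stood apart in *Gapdh* and in these controls. Their part in the differences below was not tested.

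At 15 dpc, 454 genes were higher and 473 were lower, which was 3.5% and 3.65% of the 12961 genes. Of these, 266 higher and 299 lower genes were called present on both arrays. Differences of 10-fold or more were mostly on the higher side. At least 10-fold higher were 57 genes and at least 10-fold lower were 6, while at 4-fold the numbers were 99 and 79. The middle of the distribution was narrow, with a log2 ratio of −0.55 at the 10th percentile of genes, 0.02 at the median and 0.59 at the 90th percentile. The threshold divided genes that hardly differ. *8430431K14Rik* was called higher at 30.6 on the 15 dpc array and 15.3 on the virgin array, whereas *Dpp6*, at 57.5 at 15 dpc and 28.8 in virgin dermis, was just outside.

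**Figure D1:**
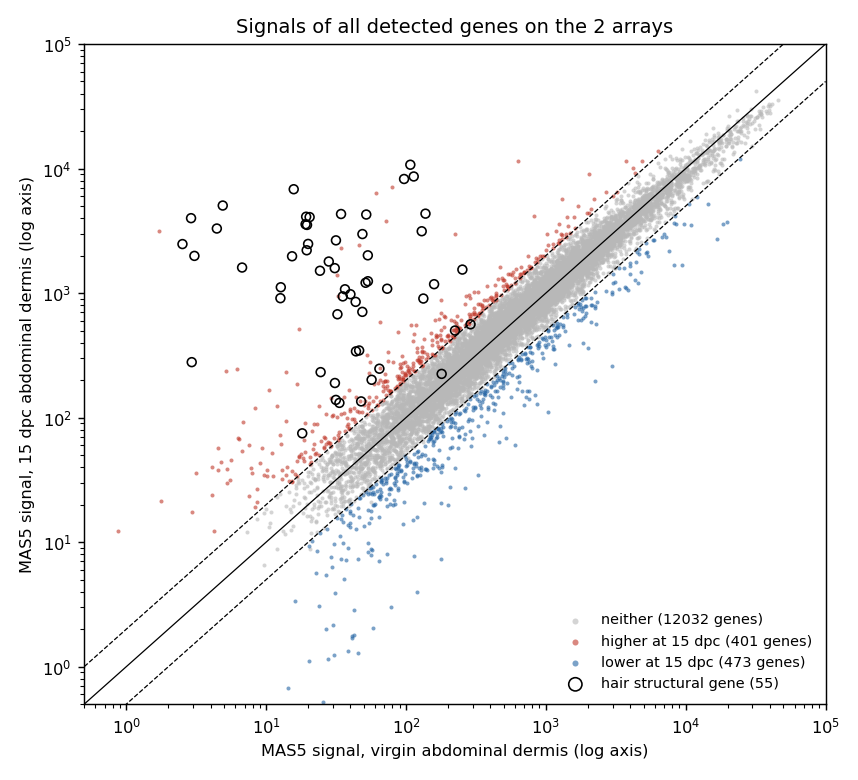
Signal of each detected gene on the 15 dpc array (vertical, log axis) against the virgin array (horizontal, log axis), 1 point per gene by its brightest probe set, with lines at equal signal and at 2-fold either way. Red and blue points are the genes called higher and lower apart from hair genes, and open circles are the 55 hair structural genes, of which 53 lie above the upper dashed line and 0 below the lower one.

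Structural genes of the growing hair made up the far end of the genes higher at 15 dpc. Of 55 detected genes for keratin-associated proteins, hair shaft keratins and inner root sheath proteins, 53 were higher and 0 were lower. They were 11.7% of all higher genes and 39 of the 57 that were at least 10-fold higher. The median signal of the 55 genes was 1510 at 15 dpc and 34.3 in virgin dermis, and 44 of them were not called present on the virgin array. Those 44 entered the comparison only through the 15 dpc array, where they are high, so the counts and medians of these classes are descriptions of the genes that entered. In a bulk sample, fewer cells of a type and less RNA per cell cannot be told apart. The median signal was 78.9 on the PP2 array and 136 on the dorsal array, both of pregnant mice.

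Many of these genes lie side by side in clusters on chromosomes 11 and 16, and most carry the same core promoter element. The sequences below, from RefSeq (GRCm38.p6), are the 60 bases before the annotated start of genes that span the 3 classes. The element TATAAA is in capitals. They are not a ranking by ratio. *Krtap15*, at least 472-fold higher, is shown as a gene of the family that lacks it. *Krtap19-3* and *Krtap19-2*, at least 374-fold and 309-fold higher, lack it as well and are not shown. *Stc2* is shown as the gene with the largest ratio among lower genes called present on both arrays.
Krtap16-3 (chr16:88962874-88962933, minus strand): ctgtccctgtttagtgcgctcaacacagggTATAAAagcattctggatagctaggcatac
Krtap11-1 (chr16:89571184-89571243, minus strand): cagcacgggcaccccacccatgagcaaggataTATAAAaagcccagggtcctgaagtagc
Krtap6-5 (chr16:89047900-89047959, minus strand): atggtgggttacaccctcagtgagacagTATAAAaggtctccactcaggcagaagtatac
Krtap4-6 (chr11:99665961-99666020, minus strand): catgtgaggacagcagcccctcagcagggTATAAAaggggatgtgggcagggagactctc
Krt34 (chr11:100041555-100041614, minus strand): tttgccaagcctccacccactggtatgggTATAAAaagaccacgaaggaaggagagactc
Krt25 (chr11:99322952-99323011, minus strand): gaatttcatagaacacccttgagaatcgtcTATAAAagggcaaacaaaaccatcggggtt
Krtap15 (chr16:88828949-88829008, plus strand): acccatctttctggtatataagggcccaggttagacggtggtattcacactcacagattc
Stc2 (chr11:31370062-31370121, minus strand): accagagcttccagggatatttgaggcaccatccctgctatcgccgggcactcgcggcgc
In the 6 sequences with the element, its first base lies 28 to 32 bases before the start. Other hair genes counted below have it elsewhere, such as 55 bases before the start in *Krtap10-4* and 15 in *Krt27*. Searched on both strands in the 60 bases before the start, TATAAA was found for 23 of the 31 detected keratin-associated protein genes with a promoter in the table (74.2%). It was found for 12 of 17 hair keratin and inner root sheath genes (70.6%), for 29 of 306 other higher genes (9.48%) and for 22 of 335 lower genes (6.57%). The share was 3.25% of the 10389 detected genes with a promoter and 3.92% of all 32851 promoters in the table. Genes of the same family share sequence by descent, and a match is a description of these letters only.

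Keratin-associated proteins, which fill the space between keratin filaments in the hair shaft, stood highest. All 33 detected genes of the family were higher at 15 dpc, with a median log2 ratio of 6.25 against 0.02 for all genes. All 33 were called present on the 15 dpc array, 25 on the PP2 array, 27 on the dorsal array and 5 on the virgin array. Thus 28 entered only through the 15 dpc array, and the 5 called present on both arrays had a median log2 ratio of 1.94. *Krtap16-3* had 6817 at 15 dpc, 159.7 on the PP2 array, 398.1 on the dorsal array and 15.7 in virgin dermis, so that it was at least 433-fold higher than in virgin dermis. *Krtap19-3* had 3992, 56.6 and 313.6 on those arrays of pregnant mice and 2.90 in virgin dermis, a difference of at least 374-fold. *Krtap6-5* was called present on both arrays, at 8239 at 15 dpc and 96.8 in virgin dermis, 85.1-fold. At the other end of the family stood *Krtap10-4*, which was 2.23-fold higher at 15 dpc than its 223.9 in virgin dermis, so the range over the family was wide. Members of the family have near-identical neighbours, and how far probe sets read more than 1 of them was not tested.

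Keratins of the hair shaft, which form its filaments, followed the same pattern. Of 10 detected, 9 were higher, with a median log2 ratio of 4.55. Of these 10, 8 entered only through the 15 dpc array, and the 2 present on both had a median log2 ratio of 1.78. *Krt33a* had 2473 at 15 dpc, 111.6 on the PP2 array, 26.2 on the dorsal array and 2.52 in virgin dermis, and was at least 232-fold higher than in virgin dermis. *Krt34*, at 1602 at 15 dpc and 6.72 in virgin dermis, was at least 150.1-fold higher. *Krt81*, called present on all 4 arrays, had 1543 at 15 dpc, 232.7 on the PP2 array, 313.5 on the dorsal array and 252.8 in virgin dermis, 6.10-fold. *Krt32*, a cuticle keratin, was the 1 gene of the class that stayed under the threshold, with 561.0 at 15 dpc and 289.0 in virgin dermis.

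Genes of the inner root sheath, which surrounds the forming shaft and hardens before it, were higher in 11 of 12 cases, with a median log2 ratio of 3.87. For the 4 of them present on both arrays it was 3.68. *Krt25* had 3524 at 15 dpc, 635.4 on the PP2 array, 70.4 on the dorsal array and 19.6 in virgin dermis, 180.0-fold over virgin dermis. *Krt73* had 939.8, 99.1 and 65.3 on the arrays of pregnant mice in that order and 35.3 in virgin dermis, at least 26.6-fold. For both, the PP2 array lay between the 15 dpc array and the virgin array. *Tgm3*, which encodes a transglutaminase that crosslinks these proteins and is also made by the cornifying epidermis, was the exception. Its signals were 224.2 at 15 dpc, 263.2 on the PP2 array, 1002 on the dorsal array and 179.7 in virgin dermis, a 1.25-fold difference between 15 dpc and virgin dermis.

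Among regulators of the hair matrix, which are transcription factors and signalling genes, 4 of 15 detected genes were higher and 1 was lower. In this list 8 genes were above 0 and 7 below, with a median log2 ratio of 0.165. Its members *Dlx3*, *Shh*, *Wnt10b* and *Edar* were called present on neither array. *Foxn1*, the regulator of hair keratin genes whose loss gives the nude mouse, had 189.0 at 15 dpc and 62.8 in virgin dermis (3.01-fold), and its other probe set was at least 2.05-fold higher. *Hoxc13*, another regulator of hair keratins, was 2.12-fold higher, at 590.4 at 15 dpc and 278.5 in virgin dermis. *Gata3*, a factor of the inner root sheath, was 2.07-fold higher and *Ovol1* 2.11-fold. *Prdm1*, which encodes the repressor Blimp1, went the other way, with 357.7 at 15 dpc and 1150 in virgin dermis. In the list of outer root sheath and bulge genes, 3 of 13 detected were higher and 0 lower, with a median log2 ratio of 0.32. *Krt6a* was higher by all 3 of its probe sets, by 2.24-fold to 3.54-fold, *Krt16* was 3.87-fold and *Krt75* at least 4.15-fold higher.

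While hair structural genes were higher, genes of the dermal papilla were mostly lower. Of 16 detected papilla genes, 8 were lower and 1 was higher at 15 dpc, with 14 below 0 and a median log2 ratio of −1.06. *Crabp1*, which encodes a retinoic acid-binding protein of papilla cells, had 3586 at 15 dpc, 10496 on the PP2 array, 3186 on the dorsal array and 18584 in virgin dermis, 5.18-fold lower than in virgin dermis. *Rspo2*, which encodes an amplifier of Wnt signals, had 34.6 at 15 dpc without a present call, 262.6 on the PP2 array, 156.5 on the dorsal array and 326.6 in virgin dermis, at least 9.43-fold lower. Its relative *Rspo3* was 2.24-fold lower. *Hhip*, a hedgehog-binding antagonist, was lower by all 4 of its probe sets, the brightest at 72.9 at 15 dpc and 360.5 in virgin dermis (4.95-fold).

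Growth factors in the papilla list were among these lower genes. Fibroblast markers leaned lower too, as given below, and which cells gave this RNA was not tested. *Fgf7*, the keratinocyte growth factor, had 648.3 at 15 dpc, 2319 on the PP2 array, 1815 on the dorsal array and 1905 in virgin dermis, 2.94-fold lower than in virgin dermis and 2.59-fold by its other probe set. *Fgf10*, which encodes a close relative, was at least 2.67-fold lower. *Notum*, a secreted enzyme that inactivates Wnt proteins, had 356.3 at 15 dpc and 1132 in virgin dermis, 3.18-fold lower. *Corin*, a protease of the papilla, was the 1 higher gene, at 113.8 at 15 dpc and 39.8 in virgin dermis. *Sox2*, which marks papillae of certain hair types and Schwann cells, was within 2-fold, at 526.5 at 15 dpc and 831.5 in virgin dermis.

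**Figure D2:**
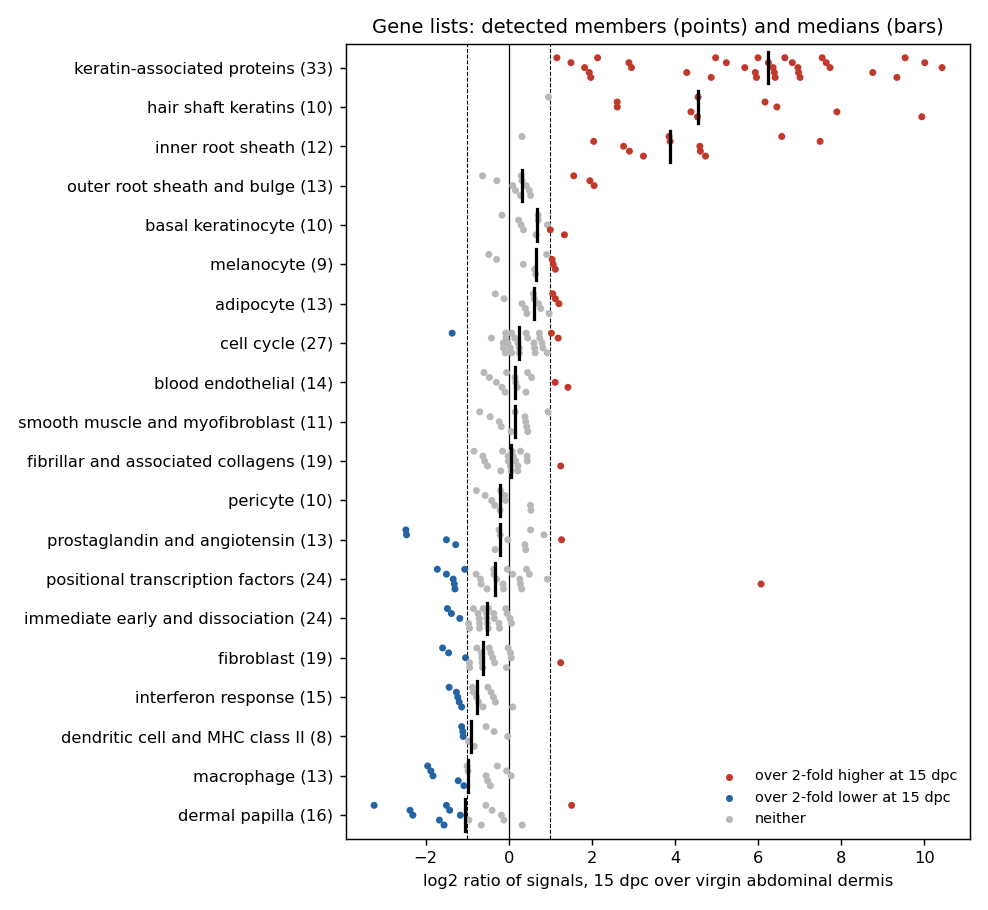
log2 ratio of signals, 15 dpc over virgin abdominal dermis, of the detected members of 20 gene lists (points, 1 per gene, number detected in parentheses), with the median of each list as a black bar and dashed lines at 2-fold. The medians run from 6.25 for keratin-associated proteins to −1.06 for dermal papilla genes, and smooth muscle and pericyte genes have 0 members past either dashed line.

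Fibroblast markers leaned to the lower side, with the type I collagen gene as an exception. Of 19 detected fibroblast genes, 3 were lower, 1 was higher and 16 were below 0, with a median log2 ratio of −0.63. *Fap*, a surface protease of activated fibroblasts, had 989.0 at 15 dpc, 3113 on the PP2 array, 2226 on the dorsal array and 2979 in virgin dermis, 3.01-fold lower than in virgin dermis. *Pi16*, a marker of a fibroblast subset found in many tissues, was 2.72-fold lower, and *Dpp4*, a protease of upper dermal fibroblasts, was lower by all 4 probe sets, by 1.60-fold to 2.82-fold. *Col1a1* had 11530 at 15 dpc, 6630 on the PP2 array, 3344 on the dorsal array and 4844 in virgin dermis, 2.38-fold higher, and 3.60-fold by its other probe set. The probe sets of *Col1a2*, the other chain of the same collagen, did not agree. The brightest had 25489 at 15 dpc and 25696 in virgin dermis, and the log2 ratios of its 3 probe sets ran from −0.96 to 1.12. Over 19 detected fibrillar and associated collagens, *Col1a1* was the only gene past 2-fold by its brightest probe set and the median log2 ratio was 0.06.

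Of the genes for crosslinking and remodelling of the matrix, few were past the threshold. *Lox*, the enzyme that crosslinks collagen and elastin, was 2.08-fold and 3.09-fold higher by its 2 probe sets. *Timp4*, an inhibitor of matrix proteases, had 4087 at 15 dpc, 1410 on the PP2 array, 2142 on the dorsal array and 1414 in virgin dermis, 2.89-fold higher. *Mmp16*, a membrane-bound protease, was lower by all 3 probe sets, the brightest at 147.1 at 15 dpc and 561.5 in virgin dermis. *Ltbp1*, which ties latent TGF-β to elastic fibres, was lower by 3 probe sets, 2.26-fold by the brightest. *Tgfb2* itself, a TGF-β ligand, was 2.23-fold lower with all 4 probe sets in the same direction, and *Inhba*, a subunit of activin, was 2.42-fold lower. Of 22 detected TGF-β and BMP genes, 0 were higher and 4 were lower, with a median log2 ratio of −0.12.

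The genes that the study names for the dermis differed from each other. *Igfbp2*, which encodes a secreted binding protein of insulin-like growth factors, had 9084 at 15 dpc, 3113 on the PP2 array, 645.6 on the dorsal array and 2023 in virgin dermis. It was 4.49-fold higher at 15 dpc than in virgin dermis, by its 1 detected probe set. *Igfbp3*, a relative, was lower at 11912 at 15 dpc and 24337 in virgin dermis (2.04-fold, and 2.41-fold by its other probe set), although its call was lost with quantile normalization. The rest of the axis, 11 of 13 detected genes, was within 2-fold.

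*Sfrp1*, which encodes a secreted antagonist of Wnt signals, had 5 detected probe sets that did not go together. The brightest had 850.7 at 15 dpc, 887.9 on the PP2 array, 991.6 on the dorsal array and 857.3 in virgin dermis, a 1.01-fold difference. A dimmer probe set had 234.9 at 15 dpc, 73.4 on the PP2 array, 190.3 on the dorsal array and, without a present call, 38.6 in virgin dermis, at least 6.08-fold higher at 15 dpc. The others gave 814.8 at 15 dpc and 730.6 in virgin dermis, 1.66-fold more at 15 dpc than the 150.2 in virgin dermis, and 664.3 at 15 dpc and 865.7 in virgin dermis, the last without a present call at 15 dpc. So 1 of 5 probe sets was past 2-fold, and the gene was not called. The list of secreted Wnt antagonists and related genes had 13 detected. The Dickkopf-like gene *Dkkl1*, whose part in Wnt signalling was not tested, was its 1 higher gene. It had 123.1 at 15 dpc and 11.9 in virgin dermis without a present call, at least 10.3-fold. *Notum* and *Dkk2* were lower, the last at 3534 at 15 dpc, 9102 on the PP2 array, 7085 on the dorsal array and 10848 in virgin dermis.

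*Acta2*, which encodes α-SMA, and *Vim*, the vimentin gene, were both within 2-fold. *Acta2* had 16453 at 15 dpc and 14744 in virgin dermis, and its dimmer probe set 273.9 at 15 dpc and 199.8 in virgin dermis. All 3 probe sets of *Vim* were lower, by 1.31-fold to 1.40-fold. Of 11 detected smooth muscle and myofibroblast genes and of 10 pericyte genes, 0 were past 2-fold in either direction, with median log2 ratios of 0.16 and −0.20. Of the genes named for the epidermis, *Tbx3*, a transcription factor, was lower by all 3 detected probe sets, at 718.8 at 15 dpc and 1137 in virgin dermis by the brightest and at 34.2 at 15 dpc and 178.4 in virgin dermis (5.22-fold) by the dimmest. *Stfa3*, a stefin, was 2.74-fold lower, *Krt2* was called present on neither array, and *Axin2*, *Tfrc*, *Mki67*, *Krt14* and *Thy1* were within 2-fold by their brightest probe sets.

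Outside the hair lists, 18 genes were at least 10-fold higher. The keratin-associated protein list was drawn by symbol prefix, so hair genes under other symbols can be among the 18. Of those called present on both arrays, *Gm10228*, which shares another probe set with the hair gene *Krtap6-1*, had the largest ratio. It had 6342 at 15 dpc, 228.7 on the PP2 array, 895.0 on the dorsal array and 60.9 in virgin dermis, 104.1-fold. It was followed by *Zic1*, a zinc-finger factor that patterns the embryo, and by *Prr9*, a gene for a proline-rich protein, with 3778 at 15 dpc and 72.3 in virgin dermis (52.2-fold). *Zic1* had 2308 at 15 dpc, 30.1 on the PP2 array, 85.8 on the dorsal array and 34.3 in virgin dermis, 67.2-fold higher than in virgin dermis, and at least 26.8-fold by its other probe set. In the list of factors that mark body position *Zic1* was the only gene called higher: of 24 detected, 1 was higher and 6 were lower. In this list 8 genes were above 0 and 16 below, with a median log2 ratio of −0.32. The lower genes were *Hoxa9*, *Hoxc8*, *Hoxc9*, *Hoxc10*, *Tbx18* and *En1*. *Hoxc10*, a gene of the posterior trunk and hindlimb, had 103.6 at 15 dpc, 307.0 on the PP2 array, 243.8 on the dorsal array and 341.0 in virgin dermis, 3.29-fold lower than in virgin dermis. *Hoxc8* was 2.48-fold lower, at 1771 at 15 dpc and 4387 in virgin dermis, and *Hoxc9*, without a present call at 15 dpc, at least 2.45-fold lower. *Hoxd8*, at 1873 at 15 dpc and 1915 in virgin dermis, and *Hoxb6*, at 569.9 at 15 dpc and 626.8 in virgin dermis, were within 2-fold. Both lie in other clusters than *Hoxc8*.

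The stanniocalcins, secreted glycoproteins first known as calcium-regulating hormones of fish, went opposite ways. *Stc1* had 1615 at 15 dpc, 713.4 on the PP2 array, 458.6 on the dorsal array and 468.2 in virgin dermis, 3.45-fold higher than in virgin dermis. *Stc2* had 260.6 at 15 dpc, 1336 on the PP2 array, 1663 on the dorsal array and 2993 in virgin dermis, 11.5-fold lower. Its other probe sets were 4.94-fold and 3.56-fold lower, so all 3 went the same way. *Pth1r*, the receptor of parathyroid hormone, was 2.20-fold lower.

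Several genes for receptors of hormones and lipid mediators differed. *Oxtr*, the oxytocin receptor, had 817.9 at 15 dpc, 736.7 on the PP2 array, 186.2 on the dorsal array and 264.0 in virgin dermis, 3.10-fold higher than in virgin dermis. By the brightest probe set it was the only one past 2-fold of 18 detected genes of steroid hormone and prolactin response, whose median log2 ratio was 0.03. *Esr1*, the oestrogen receptor, had 942.6 at 15 dpc and 1421 in virgin dermis by its brighter probe set, a log2 ratio of −0.59, and a log2 ratio of −1.19 by the other. Of 13 detected prostaglandin and angiotensin genes, 4 were lower and 1 was higher. *Ptger3*, a receptor of prostaglandin E2, had 361.4 at 15 dpc, 1329 on the PP2 array, 426.5 on the dorsal array and 1986 in virgin dermis, 5.49-fold lower. *Agtr2*, an angiotensin II receptor, had 84.9, 454.5 and 47.0 on the arrays of pregnant mice in that order and 471.1 in virgin dermis, 5.55-fold lower. The receptors *Ptgfr* and *Ptgir* were 2.82-fold and 2.42-fold lower, while *Ptger2*, another receptor of prostaglandin E2, was 2.41-fold higher, at 111.8 at 15 dpc and 46.3 in virgin dermis.

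Transporters and a few regulators showed differences on which all probe sets of the gene agreed. *Slc5a3*, a myo-inositol transporter used in osmotic balance, was 6.19-fold, 5.52-fold and 8.56-fold lower by its 3 probe sets, the brightest at 2725 at 15 dpc and 16865 in virgin dermis. *Slc26a7*, an anion transporter, had 3744 at 15 dpc, 12344 on the PP2 array, 4047 on the dorsal array and 19835 in virgin dermis, 5.30-fold lower, and at least 5.20-fold lower by its other probe set. *Bcl2*, the inhibitor of apoptosis, was lower by all 5 probe sets, by 2.32-fold to 7.47-fold, and the brightest had 1109 at 15 dpc and 3694 in virgin dermis. *Trps1*, a GATA-type repressor expressed in papilla and follicle, was lower by all 4, by 3.09-fold to 4.83-fold. *Runx1t1*, a transcriptional corepressor, was lower by all 5, by 2.27-fold to 3.49-fold. *Rorb*, a nuclear receptor, was 6.75-fold lower by the brightest of 3, at 128.0 at 15 dpc and 863.9 in virgin dermis. *Bhlhe40*, a repressor tied to the circadian clock, has 1 probe set and was 4.88-fold lower.

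Other genes with large ratios on the lower side had varied roles. In the list of matricellular and adhesive matrix genes, 4 of 17 detected were lower and 0 higher, with 7 above 0 and a median log2 ratio of −0.06. The 4 were *Hapln1*, *Thbs3*, *Tnc* and *Ccn1*, and the other genes of this paragraph are outside that list. *Ncam2*, a neural adhesion molecule, was lower by all 3 probe sets, the brightest with 141.6 at 15 dpc, 519.6 on the PP2 array, 249.6 on the dorsal array and 753.8 in virgin dermis, 5.33-fold lower than in virgin dermis. *Edil3*, which encodes an integrin-binding matrix protein, had 128.9 at 15 dpc, 994.5 on the PP2 array, 478.0 on the dorsal array and 433.4 in virgin dermis, 3.36-fold lower, and was lower by its dimmer probe sets as well. *Hapln1*, which links hyaluronan to proteoglycans, was not called present at 15 dpc by its brightest probe set and was at least 5.64-fold lower. *Mfap4*, a glycoprotein of elastic microfibrils, was at least 4.52-fold lower, at 162.1 at 15 dpc without a present call and 733.1 in virgin dermis. For *Robo2*, a receptor of the guidance cue Slit, the 15 dpc array was the lowest of the 4, with 125.8 at 15 dpc, 336.5 on the PP2 array, 754.4 on the dorsal array and 695.6 in virgin dermis. *Cldn9*, a tight junction claudin, was 8.59-fold lower at low signals, 20.6 at 15 dpc and 176.7 in virgin dermis. *Rnase2b*, of the family of eosinophil-associated ribonucleases, had 1691 at 15 dpc, 7353 on the PP2 array, 853.7 on the dorsal array and 9332 in virgin dermis, 5.52-fold lower than in virgin dermis.

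Among lower genes without a present call at 15 dpc, the largest bound was that of *8430419K02Rik*, with 7.37 at 15 dpc, 91.1 on the PP2 array, 137.6 on the dorsal array and 179.1 in virgin dermis, at least 24.3-fold lower. *Hamp2*, a relative of the iron hormone hepcidin, had 196.2 at 15 dpc without a present call and 2233 in virgin dermis, at least 11.4-fold lower. It was called present on the virgin array only, with 137.7 on the PP2 array and 206.8 on the dorsal array. *Aif1*, a calcium-binding protein of macrophages, was at least 18.2-fold lower, at 4.01 at 15 dpc and 119.7 in virgin dermis.

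Among higher genes with agreeing probe sets, *Angptl4*, a secreted inhibitor of lipoprotein lipase, had 4181 at 15 dpc, 4119 on the PP2 array, 7067 on the dorsal array and 825.3 in virgin dermis, 5.07-fold higher than in virgin dermis and 3.21-fold by its other probe set. All 3 arrays of pregnant mice lay above the virgin array. The same was seen for *Bex1*, a small signalling adaptor of neurons, with 11387 at 15 dpc, 15491 on the PP2 array, 5670 on the dorsal array and 628.0 in virgin dermis. *Il31ra*, a subunit of the receptor for the itch cytokine IL-31, was 3.49-fold higher, at 941.9 at 15 dpc and 269.8 in virgin dermis. Other cytokine receptor genes were *Il20ra*, a receptor subunit for the IL-20 family, which was 4.67-fold higher, and *Il22ra2*, a soluble decoy receptor of IL-22, with 887.1 at 15 dpc, 186.1 on the PP2 array, 1518 on the dorsal array and 177.8 in virgin dermis, 4.99-fold higher than in virgin dermis. *Serpinb2*, an inhibitor of plasminogen activators, was 4.40-fold higher, at 5686 at 15 dpc and 1294 in virgin dermis. *Bex1*, *Il20ra*, *Il22ra2* and *Serpinb2* had 1 detected probe set each, so they have no agreement to show. *Car4*, a membrane-bound carbonic anhydrase, had 603.4 at 15 dpc, 133.2 on the PP2 array, 151.6 on the dorsal array and 162.0 in virgin dermis, 3.73-fold higher.

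**Figure D3:**
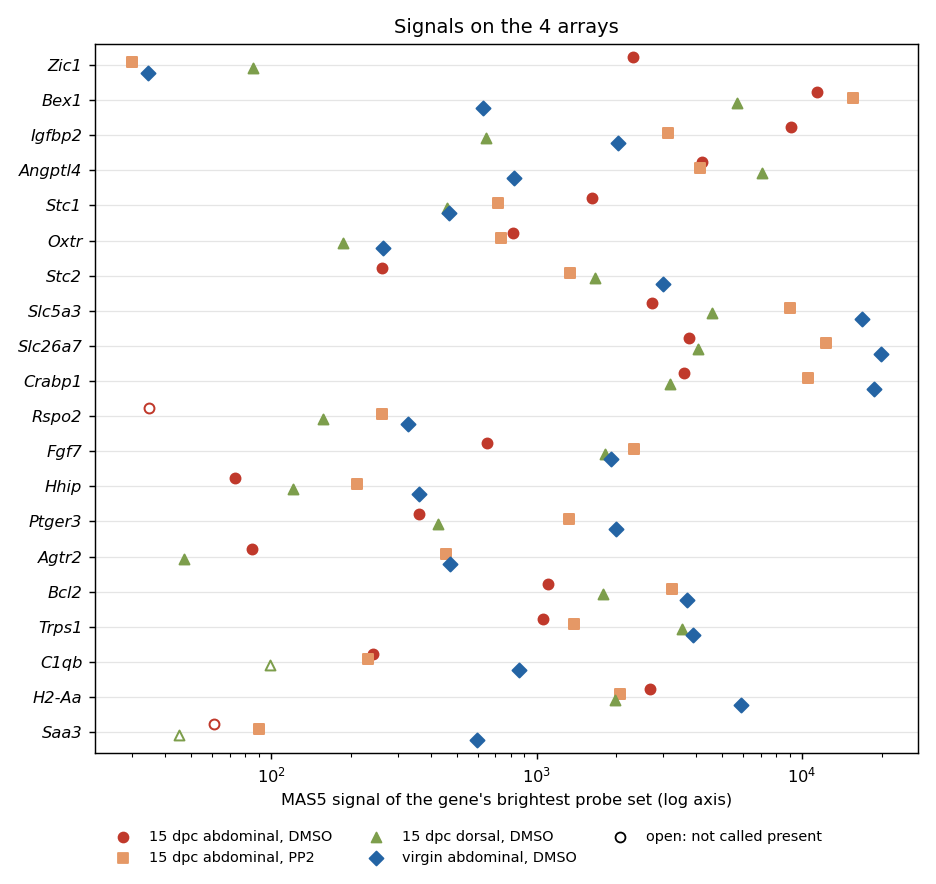
Signal (log axis, arbitrary units) of the brightest probe set of 20 named genes on the 4 arrays, 1 symbol per array, open where the probe set was not called present. *Zic1* is far to the right at 15 dpc, where it had 2308 against 34.3 in virgin dermis, whereas *Stc2*, *Slc5a3*, *Crabp1* and *Hhip* are leftmost or nearly so at 15 dpc and rightmost in virgin dermis.

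Immune genes were mostly on the lower side at 15 dpc. Of 13 detected macrophage genes, 5 were lower and 0 were higher, 12 were below 0, the median log2 ratio was −0.98, and the summed signal was 7644 at 15 dpc and 11734 in virgin dermis. Of these genes, 3 entered only through the virgin array, and with probe sets called present on both arrays the median log2 ratio was −0.53. The 3 chains of complement C1q, made by tissue macrophages, were all lower. *C1qb* had 242.7 at 15 dpc, 230.8 on the PP2 array, 99.1 on the dorsal array without a present call, and 858.3 in virgin dermis, 3.54-fold lower than in virgin dermis with its other probe sets 2.29-fold and at least 2.04-fold lower. *Cd163*, a scavenger receptor, was 2.32-fold and *Mrc1*, the mannose receptor, 2.11-fold lower. *Csf1r*, the receptor that macrophages need to survive, was an exception at 942.0 at 15 dpc and 903.3 in virgin dermis, and *Itgam* and *Msr1* were called present on neither array.

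Antigen presentation and interferon genes leaned the same way. Of 8 detected dendritic cell and MHC class II genes, 3 were lower (*Cd74*, *H2-Aa* and *H2-Eb1*) and 8 were below 0. The median log2 ratio was −0.90 and the summed signal 6264 at 15 dpc and 12358 in virgin dermis. The dendritic cell genes *Cd207*, *Xcr1*, *Flt3* and *Ccr7* were called present on neither array. *H2-Aa*, a chain of the class II molecule, had 2686 at 15 dpc, 2059 on the PP2 array, 1973 on the dorsal array and 5889 in virgin dermis, 2.19-fold lower, and all 4 of its probe sets were lower, by 1.87-fold to 2.44-fold. Of 15 detected interferon response genes, 5 were lower and 0 higher, with a median log2 ratio of −0.77. *Irf1*, a transcription factor of that response, had 2834 at 15 dpc, 5851 on the PP2 array, 3558 on the dorsal array and 6776 in virgin dermis, 2.39-fold lower than in virgin dermis. Of 10 detected neutrophil and acute inflammation genes, 2 were lower and 1 was higher, with a median log2 ratio of −0.60. *Saa3*, an acute-phase protein, had 60.8 at 15 dpc and 45.1 on the dorsal array, both without a present call, and 598.4 in virgin dermis, at least 9.85-fold lower. The higher gene was *Il1rn*, at least 2.83-fold by its brighter probe set and 2.01-fold by the other. The virgin array was the highest of the 4 for *C1qb*, *H2-Aa* and *Saa3*.

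Genes that respond within minutes to injury, and that cell dissociation is known to induce, were mostly below 0 too. Of 24 detected, 3 were lower, 0 were higher and 22 were below 0, with a median log2 ratio of −0.53. *Nr4a1*, an orphan nuclear receptor, had 5177 at 15 dpc, 11866 on the PP2 array, 8393 on the dorsal array and 14377 in virgin dermis, 2.78-fold lower than in virgin dermis. *Fosb* was 2.60-fold and *Junb* 2.26-fold lower, both subunits of AP-1, and *Fos* was within 2-fold at 23394 at 15 dpc and 29700 in virgin dermis. How the handling of the tissue moved these genes was not tested.

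Genes of fat, basal keratinocytes and pigment cells leaned to the higher side by small amounts. Of 13 detected adipocyte genes, 3 were higher and 0 lower, with a median log2 ratio of 0.61 and a summed signal of 96061 at 15 dpc and 80055 in virgin dermis. The adipocyte genes *Cidec*, *Lep* and *Retn* were called present on neither array. *Cd36*, a fatty acid transporter also made by capillaries, was higher by all 3 probe sets, by 2.18-fold to 3.03-fold, and *Pparg*, the regulator of adipocyte differentiation, was 2.31-fold higher, at 935.6 at 15 dpc and 404.6 in virgin dermis. Of 10 basal keratinocyte genes, *Lama3*, a laminin chain, was 2.53-fold higher, *Trp63*, the p63 gene, was just over the threshold at 5999 at 15 dpc and 2997 in virgin dermis, and 0 were lower, with a median log2 ratio of 0.68 and a summed signal of 63399 at 15 dpc and 46850 in virgin dermis. Genes of differentiated keratinocytes were mixed: of 14 detected, 1 was higher, 2 were lower, 9 were above 0 and 5 below, with a median log2 ratio of 0.54. *Dsg1a*, a desmosomal cadherin, was 2.87-fold higher, while *Casp14*, a protease of cornification, was 2.35-fold and *Lce1m*, of the cornified envelope, 2.54-fold lower. Of 9 melanocyte genes, *Tyrp1*, *Pmel* and *Tyr* were higher, with a median log2 ratio of 0.65 and of 0.35 with probe sets called present on both arrays. None of the 3 was called present on the virgin array by its brightest probe set. *Tyrp1* lost its call when probe sets marked as shared by several transcripts were left out, and the probe sets of *Tyr* went opposite ways, as given below. The part of these cell types in other differences was not tested.

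Few markers of other tissues were detected. Of 12 genes of the mammary gland, 4 were detected, 2 of them higher (*Csn2* and *Krt7*) and 4 above 0, with a median log2 ratio of 0.86 and a summed signal of 214.9 at 15 dpc and 121.3 in virgin dermis, and *Csn3*, *Wap*, *Lalba*, *Krt8* and *Elf5* were called present on neither array. *Csn2*, the β-casein gene, had 50.2 at 15 dpc, 37.7 on the PP2 array, 105.3 on the dorsal array and 23.8 in virgin dermis, and both calls were lost with 16 added to each signal. Of 15 skeletal muscle genes, 8 were detected, 3 of them lower and 0 higher, with a summed signal of 1158 at 15 dpc and 1710 in virgin dermis, and *Ckm*, *Myh4* and *Myh2* were called present on neither. The *Myh1* probe sets were 2.37-fold and 2.38-fold lower. Of 27 detected cell cycle genes, 2 were higher, *Top2a* and *Aurkb*, 1 was lower, *Tyms*, and the median log2 ratio was 0.25. Both higher calls were lost with 16 added to each signal, and the other probe set of *Top2a* was at least 1.17-fold higher. Of the endothelial adhesion molecules, *Sele* was 2.17-fold higher and *Selp* 2.69-fold by its brightest probe set but under 2-fold by the others (1.69-fold by the second brightest), and its call was lost without shared probe sets. By their brightest probe sets, 12 of 14 endothelial genes were within 2-fold.

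Probe sets of a gene often did not agree. Of 103 higher genes with at least 2 detected probe sets, 37 (35.9%) were over 2-fold higher by all of them and 79 (76.7%) had all in the same direction. Of 132 lower genes of that kind, 53 (40.2%) were over 2-fold lower by all and 112 (84.8%) had all in the same direction. Among 5727 genes that were not called, all probe sets went the same way in 2729 (47.7%). A single probe set carried the call of 351 higher and 341 lower genes, which thus have no such check.

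The disagreement was larger for dim genes. Between the 2 brightest probe sets of 5962 genes, the log2 ratios differed by a median of 0.29, and by 0.69 where the signal was below 50 and 0.19 where it was at least 2000. In 19 genes, 1 probe set was over 2-fold higher and another over 2-fold lower. *Lrrc17*, which encodes a secreted leucine-rich repeat protein, had 164.1 at 15 dpc and 762.5 in virgin dermis by its brightest probe set, and 44.6 at 15 dpc and 3.28 in virgin dermis by the other. *Laptm5*, a lysosomal membrane protein of immune cells, was 2.37-fold and 2.03-fold lower by the brightest probe sets and at least 6.65-fold higher by the dimmest. *Tyr*, the tyrosinase gene of pigment cells, was at least 2.06-fold higher by its brighter probe set and at least 5.02-fold lower by the other. With the median over the probe sets of a gene, 11 named genes lost their call, *Hoxa9*, *Selp*, *Top2a*, *Trp63* and *Tyr* among them.

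**Figure D4:**
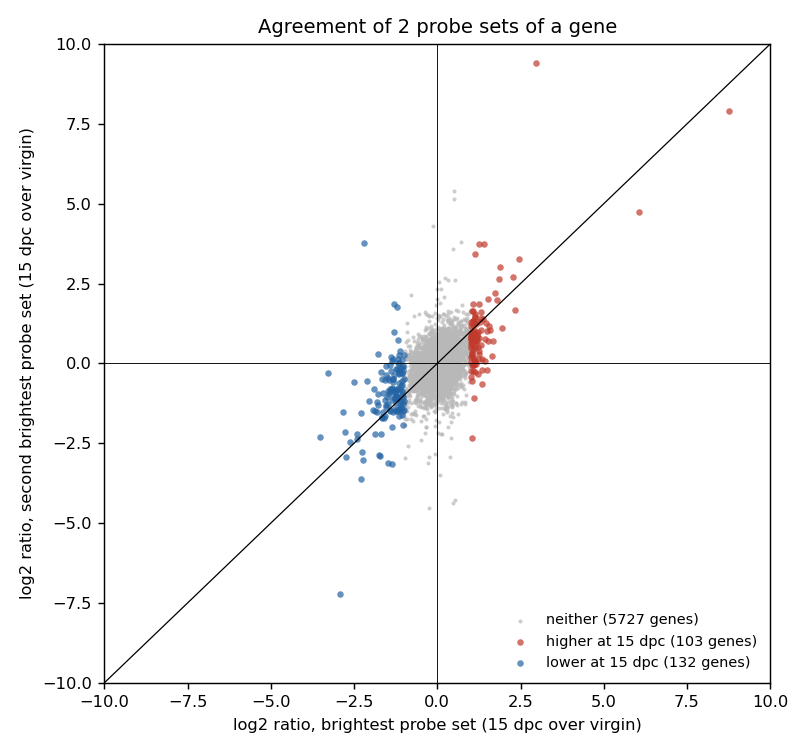
log2 ratio, 15 dpc over virgin dermis, of the second brightest (vertical) against the brightest probe set (horizontal), 1 point per gene with at least 2 detected probe sets, red for the 103 genes called higher, blue for the 132 called lower and grey for the 5727 others. Points on the diagonal agree, and points at the upper left and lower right have probe sets of opposite direction.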

How the data were processed

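The authors deposited 1 table per array, with MAS5 signals made in Affymetrix Expression Console (version 1 in the submitters' processing notes) and scaled to 1 trimmed mean per array. These signals are an intensity on a linear scale and were used as deposited. The comparison of the 15 dpc with the virgin array used no p-value, since each condition had 1 array. Probe sets without a symbol (9160), with several symbols (932) and controls (64) were left out, and symbols came from the platform's annotation. Symbols of 23215 detected probe sets were found in the RefSeq gene list (GRCm38.p6), and those of 60 were not. The table of all arrays was not used, and 0 columns of values lacked a sample.

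Each gene was represented by its brightest probe set (mean log2 signal of both arrays), and a ratio above 2 counted. The text names the genes the study names for dermis or epidermis, the 15 genes with the largest ratio in each direction (among genes present on both arrays, and among those whose probe sets all agreed), up to 6 members of each of 47 gene lists past 2-fold, 5 genes with the largest bounds in each direction and 6 genes with discordant probe sets. Not all are printed, and other list members were chosen after their values were seen. The members of the comparison and the lists were chosen with earlier results of these data known. The rules for the calls were run on simulated data, which gives no measure of how sure the calls on these arrays are. Calls near the threshold, of dim genes or of genes with discordant probe sets have no check from it. Alternatives were other scalings, filters, thresholds and rules for the probe set of a gene. Python 3.11.15, numpy 2.4.6, pandas 2.3.3 and matplotlib 3.10.9 were used.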

Additional observations from a re-analysis of the deposited data

Results flagged for a closer look

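Probe sets that were left out for lack of a single symbol held further differences. A probe set shared by *Gm10228*, *1110025L11Rik* and the hair gene *Krtap6-1*, had 6392 at 15 dpc and 74.2 in virgin dermis, 86.1-fold higher. Another, shared by the aldo-keto reductase genes *Akr1c12* and *Akr1c13*, had 484.6 at 15 dpc and 138.8 in virgin dermis, 3.49-fold higher. Of probe sets with no symbol, 1 was at least 16.2-fold higher, at 1572 at 15 dpc and 97.3 in virgin dermis, and another was at least 7.28-fold higher, at 121.4 at 15 dpc and 16.7 in virgin dermis. They drew attention because the comparison did not use them and they exceeded the level on the virgin array.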

How the results depend on the processing

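With any probe set of a gene in place of the brightest, 738 genes were higher and 822 lower. They were 266 and 299 where both arrays had to call the probe set present, 1341 and 1687 with no detection filter, 1295 and 1139 at 1.5-fold, and 157 and 161 at 3-fold. The counts stayed within 1.5 times the main ones under the other alternatives, at 352 to 509 higher and 376 to 478 lower. Quantile normalization gave 509 and 425. The share of called genes on which all probe sets agreed, 38.3%, ran from 34.8% to 41.4%. Of 861 values of named genes, 774 moved by less than the typical difference between probe sets and 6 changed direction: *Adgre4* with a log2 ratio of 0.28, *Caln1* with 0.28 and 1.77, *Lrrc17* with 0.78 and *Tyr* with −0.64 and −2.33. *Trp63* lost its call with the arrays scaled to 1 median, and *Ccn1* and *Igfbp3* with quantile normalization. With 16 added to each signal 11 named genes lost their call, with the median over probe sets 11, and without probe sets that can read several transcripts 6, besides 24 named genes with no probe set left. The cause was not tested. No paired analysis was possible because each condition had 1 array. Dim genes are least precise, and the number of arrays limits all values.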

Other observations

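Probe sets with no gene symbol were lower at 15 dpc more often than those with 1. Of 4452 detected without a symbol, 713 (16%) were over 2-fold lower and 133 (2.99%) over 2-fold higher than in virgin dermis, against 951 (4.09%) lower and 810 (3.48%) higher of 23275 with 1 symbol. At signals of 200 to 500, 18.4% of the first kind and 3.18% of the second were lower, whereas below 50 the shares were 21.5% and 18.6%. Against the dorsal array, which shares the 15 dpc array with this comparison, 22.6% of probe sets without a symbol were lower and 3.08% higher, and 5.76% and 5.51% of those with 1 symbol. Against the PP2 array 4.25% of the first kind were lower and 10.7% higher, and 3.39% and 7.89% of the second. What these probe sets read was not tested.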
